A study of Homo sapiens with 8 samples.

Results

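Remote intronic loci are stretches of RNA that were assembled from short reads inside an intron of a protein-coding gene, well away from every annotated exon on the same strand. The loci described here were chosen by 4 conditions on position and 1 on abundance: an assembled gene on a main chromosome of hg38, no overlap with an annotated exon on its strand, a nearest such exon at least 1000 bases away, a longest coding host on the same strand that spans under 100 kb, and at least 10 normalized counts in at least 3 short-read libraries. Of 62727 genes in the short-read table, 385 met all conditions. Another 10 loci met the position conditions but not the count minimum, with mean counts of at most 10.0. No condition named a fraction, but the 3 libraries of a single fraction could meet the count minimum. Through chromatin alone 175 loci passed it.

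The libraries came from HAP1, a near-haploid human cell line derived from a chronic myeloid leukemia line that carries the BCR and ABL1 fusion. No treatment is named, and all groups share 1 genotype. Nuclei were split into a chromatin pellet (3 short-read and 2 long-read libraries) and the nucleoplasm (3 short-read libraries), so that RNA held on chromatin could be set against RNA that had been released, and short-read RNA was depleted of ribosomal RNA before sequencing. Depth was 38895027 to 43804918 recovered reads in chromatin and 75737601 to 79523938 in nucleoplasm. The labels name chromatin in 1 field for every library, and only the titles set the fractions apart. The log2 fold change between fractions (chromatin over nucleoplasm) was 3.09 for MALAT1 and 2.40 for NEAT1, which are nuclear noncoding RNAs, and -2.35 for GAPDH and -2.11 for B2M, which are mRNAs. HAP1 grows as an adherent line and has lost much of its blood character. BCR, ABL1, VIM and COL1A1 were detected, whereas the blood genes PTPRC, GATA1, SPI1, MPO and CD3E were at 0 in all 6 short-read libraries. A line is 1 clonal source, and the replicates are repeat cultures of it.

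Introns are transcribed with the rest of a gene and are cut out of the precursor RNA by the spliceosome, largely while the polymerase is still on the template. The excised intron is opened and degraded in the nucleus, and the spliced mRNA leaves. RNA read from an intron can therefore be part of a precursor, an excised intron, a stable piece of one, a transcript with its own start inside the intron, or a processed copy of another gene's mRNA that landed there. Fractionation and counting alone do not separate these. Fewer molecules per cell and fewer cells holding the molecule also cannot be told apart in bulk libraries.

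The sequences of 8 loci are shown as read from hg38 (5′ to 3′ on the strand of the locus), since they mark the range of the class. The first 4 are loci whose sequence closely matched a known RNA made elsewhere, 3 of them being among the loci higher in nucleoplasm, and capitals mark bases that differ from that RNA. They lie at chr3:119530995-119531294 (minus, MSTRG.23358 in CD80, the first 300 of 325 bases), chr5:95500146-95500414 (minus, MSTRG.26463 in SKIC3), chr9:37837548-37837785 (plus, MSTRG.33554 in DCAF10) and chr11:77886459-77886743 (plus, MSTRG.5724 in AAMDC).
CD80 locus: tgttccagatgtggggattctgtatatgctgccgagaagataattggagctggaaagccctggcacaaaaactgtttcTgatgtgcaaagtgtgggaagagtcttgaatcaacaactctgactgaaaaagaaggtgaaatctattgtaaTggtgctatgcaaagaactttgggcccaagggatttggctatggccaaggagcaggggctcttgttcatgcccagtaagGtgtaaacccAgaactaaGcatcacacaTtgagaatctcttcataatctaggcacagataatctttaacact
SKIC3 locus: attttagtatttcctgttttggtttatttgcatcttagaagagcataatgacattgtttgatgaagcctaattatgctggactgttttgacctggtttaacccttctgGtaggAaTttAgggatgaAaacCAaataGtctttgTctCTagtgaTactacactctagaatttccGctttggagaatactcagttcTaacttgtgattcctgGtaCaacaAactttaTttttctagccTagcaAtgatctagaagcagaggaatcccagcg
DCAF10 locus: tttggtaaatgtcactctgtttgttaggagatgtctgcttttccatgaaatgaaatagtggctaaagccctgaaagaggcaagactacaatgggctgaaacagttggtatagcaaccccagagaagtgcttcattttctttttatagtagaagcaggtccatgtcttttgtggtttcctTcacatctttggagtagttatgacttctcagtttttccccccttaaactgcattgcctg
AAMDC locus: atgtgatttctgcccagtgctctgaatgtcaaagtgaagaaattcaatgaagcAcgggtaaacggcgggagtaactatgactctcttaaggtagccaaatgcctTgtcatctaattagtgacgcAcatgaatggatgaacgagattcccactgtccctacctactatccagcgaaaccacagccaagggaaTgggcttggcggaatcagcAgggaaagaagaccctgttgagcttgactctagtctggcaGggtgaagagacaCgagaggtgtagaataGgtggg
The CD80 locus, inside the gene of a costimulatory ligand of T cells, differed by 6 substitutions and 1 missing base from the mRNA of CSRP2, a LIM domain protein. The SKIC3 locus differed by 20 substitutions and 9 missing bases from RSL24D1, a ribosome assembly factor. The DCAF10 locus differed by 1 substitution over 237 bases from MRPS10, a protein of the mitochondrial ribosome. The AAMDC locus differed by 8 substitutions over all 285 bases from the large cytoplasmic ribosomal RNA (RNA28SN2 in RefSeq, GRCh38.p14). All of these matches were in the sense direction.

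The other 4 sequences are the central 150 bases of the loci with the 2 highest fold changes, in ESYT2 and ARSK, and of 2 abundant loci with nearly equal levels in both fractions, in TSC22D4 and MRPS25. Capitals mark CG dinucleotides. They lie at chr7:158782616-158782765 (minus, MSTRG.31716), chr5:95573220-95573369 (plus, MSTRG.26466), chr7:100471078-100471227 (minus, MSTRG.31057) and chr3:15057139-15057288 (minus, MSTRG.22394).
ESYT2 locus: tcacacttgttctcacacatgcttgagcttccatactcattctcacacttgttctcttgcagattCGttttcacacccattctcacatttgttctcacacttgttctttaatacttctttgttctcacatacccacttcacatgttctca
ARSK locus: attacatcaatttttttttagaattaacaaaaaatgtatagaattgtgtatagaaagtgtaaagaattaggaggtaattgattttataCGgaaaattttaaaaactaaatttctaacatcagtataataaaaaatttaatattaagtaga
TSC22D4 locus: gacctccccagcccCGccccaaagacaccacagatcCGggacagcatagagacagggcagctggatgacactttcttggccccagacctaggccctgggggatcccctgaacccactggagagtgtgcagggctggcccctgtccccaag
MRPS25 locus: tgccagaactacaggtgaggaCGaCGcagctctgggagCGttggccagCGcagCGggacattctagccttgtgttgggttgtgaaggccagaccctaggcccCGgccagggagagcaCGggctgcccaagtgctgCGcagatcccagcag
GC content of these windows was 39.3% in ESYT2, 18.0% in ARSK and 64.7% in both TSC22D4 and MRPS25. The letters CG (the same on both strands) stood 8 times in the MRPS25 window, the only 1 of 385 central windows with that many. Of the 385 windows 69.1% held at least 1 CG. The share was 68.5% of 791 windows in loci within 1 kb of an exon and 56.8% of 704 windows in remote loci of longer hosts. Of those 791 and 704 windows, 14 and 8 held at least 8.

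Intronic loci were mostly higher in chromatin. Of the 385 loci, 342 (88.8%) were called in chromatin, which means an adjusted p-value under 0.05 (limma with a mean-variance trend) and more than 4-fold, against 21.2% of the 26066 genes tested. The median log2 fold change was 3.72 (quartiles 2.91 and 4.37, range -2.17 to 5.98), against -0.02 over all tested genes. At any fold, 373 loci were higher in chromatin (44.2% of all tested genes), 5 were higher in nucleoplasm (45.2%) and 7 did not pass the test. All 3 chromatin libraries were above all 3 nucleoplasm libraries for 373 loci (44.6% of all tested genes), and the reverse held for 5 (46.0%).

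**Figure D1:**
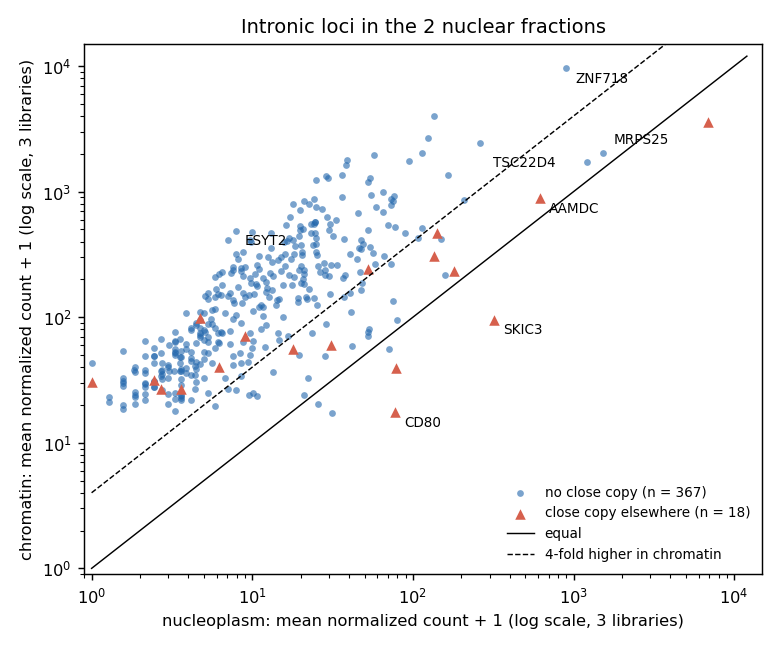
Each point is 1 of the 385 loci, with its mean normalized count + 1 over 3 nucleoplasm libraries (x) and 3 chromatin libraries (y) on log axes; triangles are the 18 loci with a close copy elsewhere. Most points lie above the dashed line of 4-fold, and the CD80 and SKIC3 loci lie below the line of equal counts.

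The count minimum bears on these counts. With a minimum in 3 columns, a locus could pass through its chromatin values alone, and 175 loci did so, with every nucleoplasm value under 10. Such a locus had to be lower in nucleoplasm, so the counts above describe the loci and are no measure of how introns behave in general. The 158 loci with at least 10 counts in all 6 libraries had a median log2 fold change of 3.36, and 123 of them (77.8%) were called in chromatin. In 56 loci every nucleoplasm library held at most 3 reads. With these set to their lower bound, against 3 counts in each library, the median over all 385 loci was 3.62.

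The direction of the class did not rest on the scaling, but its size did. With libraries set to the same total of ERCC standards the median of all tested genes moved from -0.02 to -1.33, and under an equal total of counts per library it moved to 0.44. The loci's median was then 2.61 and 4.13. Under the ERCC scaling 260 loci were called in chromatin, against 12.0% of all tested genes, and under the other 355, against 25.6%.

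Together the 385 loci took 0.229%, 0.266% and 0.220% of all counts in chromatin replicates 1, 2 and 3. In nucleoplasm they took 0.0337%, 0.0271% and 0.0261%. The median locus had a normalized count of 118, 127 and 120 in the chromatin libraries and 9.65, 8.61 and 8.45 in the nucleoplasm libraries. No chromatin library had a locus at 0, and 16 or 17 loci were at 0 in each nucleoplasm library.

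The loci with the highest fold changes among those with a mean count of at least 50 lay in genes of unrelated roles. In ESYT2, a tether between the endoplasmic reticulum and the plasma membrane, a locus of 4216 bases had normalized counts of 523, 573 and 366 in chromatin and 9.65, 4.30 and 6.76 in nucleoplasm. In ARSK, a lysosomal sulfatase, a locus of 4283 bases had 379, 440 and 408 against 7.02, 5.17 and 5.91. The fractions did not overlap at either locus, and the log2 fold changes were 5.98 ± 0.27 (SE, n = 3 and 3, limma adjusted p = 9.0e-08) and 5.87 ± 0.15 (adjusted p = 1.0e-08). SLC30A7, a zinc transporter of the Golgi, held a pair of loci 292 bases apart in intron 8. The first had 1073, 1574 and 1079 counts in chromatin and 21.1, 27.5 and 23.7 in nucleoplasm, and the second 1292, 1590.04 and 1139 against 40.4, 23.2 and 19.4. Their log2 fold changes were 5.61 and 5.60. The fifth was a locus in intron 1 of ZNF654, a zinc finger gene, with 445, 446 and 345 counts in chromatin and 15.8, 4.30 and 5.91 in nucleoplasm (log2 fold change 5.59 ± 0.38). In all, 31 loci had a log2 fold change above 5, with a median span of 5027 bases.

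The most abundant loci were a mixed group. In ZNF718, a zinc finger gene, a locus of 11233 bases in intron 3 had 9592, 10129.9 and 9205 counts in chromatin and 946, 902 and 854 in nucleoplasm. It was the most abundant member, well apart between the fractions (log2 fold change 3.42 ± 0.06, limma adjusted p = 8.4e-09). LRRN1, a leucine-rich repeat membrane protein, held the longest locus of the class, of 25389 bases, with 3801, 4465 and 3663 counts against 132, 151 and 123 (4.87 ± 0.10). A locus of 13724 bases in intron 1 of AVL9 had 2588, 3166 and 2322 against 153, 111 and 107 (4.44 ± 0.15).

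Other abundant loci were nearly level between the fractions. In MRPS25, which codes for a protein of the mitochondrial ribosome, a locus of 1987 bases had 2007, 1943 and 2091 counts in chromatin and 1565, 1464 and 1559 in nucleoplasm. In TSC22D4, a leucine zipper protein, a locus of 3038 bases had 1756, 1599.65 and 1853 against 1266, 1186 and 1202. Both were higher in chromatin by little, with the libraries apart (log2 fold changes 0.40 ± 0.05 and 0.51 ± 0.06, limma adjusted p = 8.4e-05 and 7.0e-05), and both turned to -0.93 and -0.81 with the same ERCC total. The gene row of TSC22D4 had a log2 fold change of -1.13, below that of its intronic locus, and no gene row matched MRPS25 by its span.

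**Figure D2:**
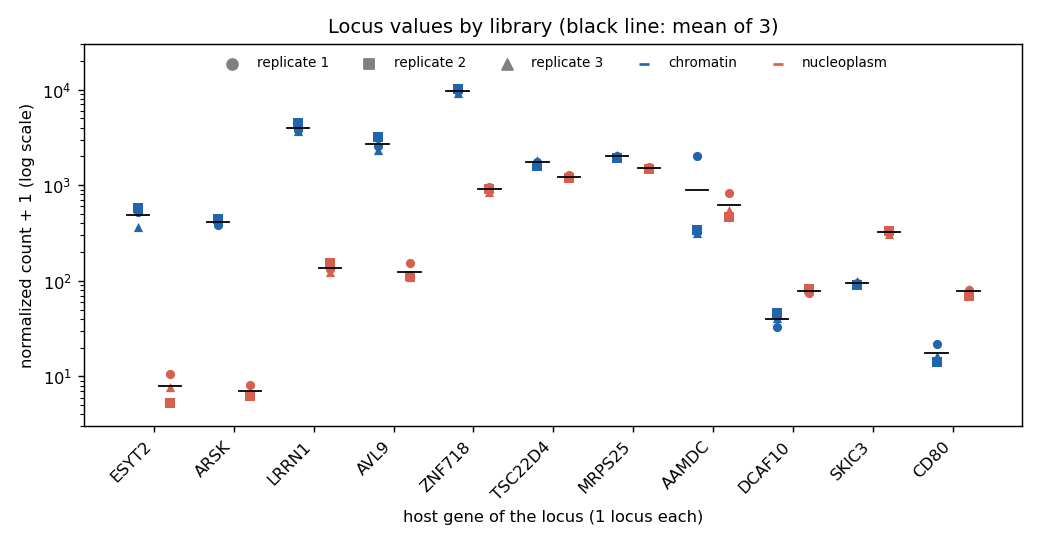
Normalized count + 1 (log axis) of 11 loci, named by host gene, in each of 3 chromatin (blue) and 3 nucleoplasm (red) libraries, with the replicate shown by marker shape and the mean by a black line. The ESYT2 to ZNF718 loci were high in chromatin, the TSC22D4 and MRPS25 loci were nearly level, replicate 1 stood above the others at AAMDC, and the last 3 loci were higher in nucleoplasm.

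Loci with little or no excess in chromatin were few. Log2 fold changes were at or below 1 in 22 loci, of which 10 still passed the test in chromatin and 5 in nucleoplasm. Their median span was 367 bases and their median GC content 47.0%, against 1057 bases and 40.9% over all 385. The CD80 locus was the single one called in nucleoplasm, against 8.47% of all tested genes. Its normalized counts were 21.0, 13.2 and 15.4 in chromatin and 79.9, 68.9 and 82.0 in nucleoplasm (log2 fold change -2.17 ± 0.19, limma adjusted p = 7.1e-06). The SKIC3 locus, in a gene for a subunit of the Ski complex that feeds RNA to the exosome, had 94.3, 88.9 and 98.8 counts in chromatin and 321, 331 and 308 in nucleoplasm (-1.76 ± 0.08, adjusted p = 1.1e-07). The DCAF10 locus had 31.4, 44.4 and 39.5 against 72.8, 81.8 and 78.6 (-1.01 ± 0.16, adjusted p = 2.6e-04). At these 3 loci every nucleoplasm library was above every chromatin library.

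The AAMDC locus, which matches ribosomal RNA, was abundant and uneven between replicates. It had 1999, 339 and 317 counts in chromatin and 836, 467 and 552 in nucleoplasm, with a log2 fold change of -0.00 ± 0.64 (limma adjusted p = 1.0). Replicate 1 was the highest in both fractions, and without chromatin replicate 1 the log2 fold change was -0.87 (limma adjusted p = 0.0080). The deposited row over a ribosomal DNA contig with matches to the AAMDC locus had 877928, 254152 and 264142 counts in chromatin and 446873, 302442 and 335186 in nucleoplasm. Replicate 1 was the highest there too. The part of misplaced ribosomal reads in the locus counts was not tested.

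Among the loci higher in nucleoplasm, 1 had no close copy. It lay in FBXO27, an F-box protein, and had 21.0, 14.4 and 13.2 counts in chromatin and 33.3, 28.4 and 29.6 in nucleoplasm (-0.90 ± 0.22, limma adjusted p = 0.0038). The host's own log2 fold change was -0.81. In PSTPIP2, an F-BAR membrane protein, a locus had 47.8, 49.2 and 68.1 against 85.1, 57.7 and 68.4 and the fractions overlapped (-0.35 ± 0.19, adjusted p = 0.12). Without chromatin replicate 3 it was -0.51 (adjusted p = 0.033), and with the same total of counts 0.11.

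Close copies were counted over the whole class. A locus counted as such when at least 80% of it matched a transcript of another gene or the mitochondrial genome at 90% identity or more, or matched another place in the genome at 95% or more, and 18 loci did. They included 6 copies of transcripts, 1 of ribosomal RNA, 2 sequences with many copies (in RBL1 and ZNF227) and 8 with genomic copies only. The other transcript copies were in BMX, a tyrosine kinase gene (matching HNRNPDL, an RNA-binding protein), in TTPA (matching CUL4B) and in ANKRD18B (matching its relative ANKRD18A). The BMX locus had 259, 237 and 205 counts in chromatin and 176, 186 and 173 in nucleoplasm (log2 fold change 0.38.) Of the 18 loci 8 were called in chromatin, with a median of 1.67. Of the 367 others 334 (91.0%) were called, with a median of 3.78. Reads of near-identical sequence may be placed at either copy, so the counts of these 18 loci are uncertain.

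Hosts are the natural reference for their introns. The 385 loci lay in 317 hosts and 340 introns on 23 chromosomes, with 266 hosts holding 1 locus, 40 holding 2, 6 holding 3, 4 holding 4 and 1 holding 5. Of 9624 tested coding genes under 100 kb, 3.11% held a locus. The 299 that did had a median mean count of 1459, against 1497 for the rest, and a median span of 50645 bases, against 24846.

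The host's own RNA did not share the locus's distribution. The host gene was tested for 367 loci, and the median log2 fold change of those hosts was -0.32. Counted over these 367 loci, hosts were higher in chromatin for 101 and in nucleoplasm for 210, against 44.2% and 45.2% of all tested genes. They were more than 4-fold apart for 5 in chromatin and 6 in nucleoplasm, against 21.2% and 8.47%. Counted over genes, tested coding genes under 100 kb had a median of -0.36 with a locus and -0.53 without one. The log2 fold change of a locus exceeded that of its host by a median of 4.07 (quartiles 2.93 and 4.93, range -1.25 to 7.19). By a limma fit to the ratio of locus to host in each library, 350 loci were higher in chromatin relative to their host, 326 of them by more than 4-fold, 2 were lower and 15 did not pass the test. Over all 1812 intronic loci with a tested coding host, 93.7% were higher, 83.9% by more than 4-fold, and 2.87% lower, so that the share in this class was near that background. Loci that passed the count minimum through chromatin alone are in these counts, and the same minimum was used for that background. Their low nucleoplasm level was part of the choice, so the counts only describe the loci. The scaling of a library cancels in the ratio of locus to host. Across 367 loci the fold change of a locus was hardly related to that of its host (Pearson's r 0.06, Spearman's rho 0.04), with loci of the same host sharing a point on that axis.

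**Figure D3:**
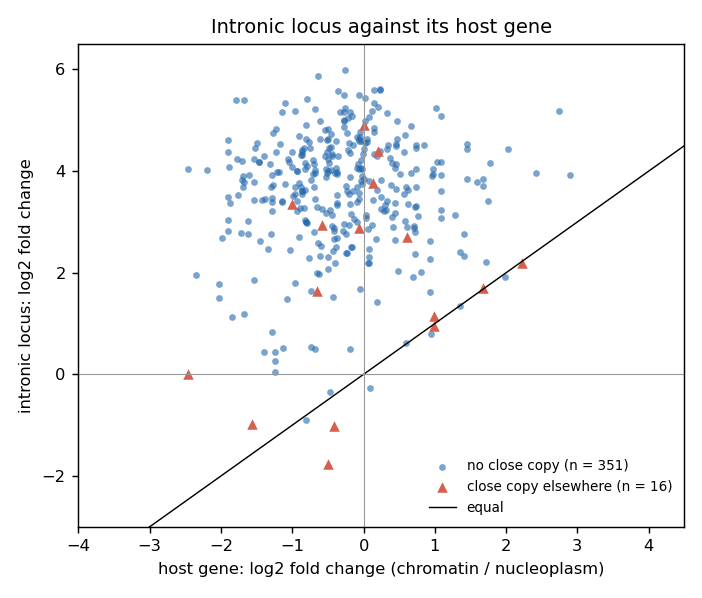
Log2 fold change of the locus (y) against that of its host gene (x) for the 367 loci with a tested host; the line marks equal values and triangles mark loci with a close copy elsewhere. The cloud lies well above the line, with hosts spread around 0.

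Levels per kilobase put the same contrast on 1 scale. Locus counts were divided by the span of the locus, and host counts by the bases in all annotated exons of the host, which overstates the length of any single mRNA. In chromatin the median locus was at 105 counts per kb and the median host at 227, and a locus stood at a median of 49.8% of its host. In nucleoplasm the medians were 7.15 and 301 counts per kb, and a locus stood at 2.52% of its host. These values include the loci that passed the count minimum through chromatin alone, for which a low nucleoplasm level was part of the choice. Loci above their host's level numbered 64 in chromatin and 9 in nucleoplasm.

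The largest distances from the host, among loci with a mean of at least 50, were in NBDY, which codes for a P-body microprotein, in KHDRBS1 (the RNA-binding protein Sam68) and in ARSK. The NBDY locus had 1507, 1883 and 1464 counts in chromatin and 37.7, 37.0 and 37.2 in nucleoplasm, and its ratio to its host was higher in chromatin by 7.07 on the log2 scale (limma adjusted p = 7.7e-08). The KHDRBS1 locus had 214, 239 and 184 against 9.65, 7.75 and 5.91, with a difference from its host of 6.52. The smallest distances were in SKIC3 (-1.25), DCAF10 (-0.60) and NPIPB8, a gene of a segmentally duplicated family. The NPIPB8 locus had 245, 270.2 and 204 counts in chromatin and 54.4, 45.6 and 54.9 in nucleoplasm (log2 fold change 2.19), and its host had 2.22. It had 10 other close copies in the genome, so that both values are uncertain.

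Some hosts held several loci. MBD2, a protein that binds methylated DNA, held 5. A locus of 6813 bases in intron 5 had 630.1, 893 and 613 counts in chromatin and 11.4, 18.1 and 27.0 in nucleoplasm (log2 fold change 5.22.) The 3 loci in intron 1, of which a pair overlap each other, had log2 fold changes of 3.97, 3.46 and 4.03, and the one at 3.46 had no nucleoplasm library above 3 reads (at least 12.3-fold higher against a floor of 3 counts per library). The fifth stood apart. Its 356 bases in intron 3 had 52.4, 70.9 and 51.6 counts in chromatin and 43.9, 41.3 and 37.2 in nucleoplasm (log2 fold change 0.49, limma adjusted p = 0.020, 0.067 without nucleoplasm replicate 3, and -0.81 with the same ERCC total). So 1 gene held loci that differed in fold change by up to 4.73.

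The loci of the 2 other hosts named for their number were more alike. LRIG2, a membrane protein with leucine-rich repeats, held 4 loci, with log2 fold changes of 3.68, 4.05 and 4.46 in intron 1 and 3.32 in intron 18. The least abundant of them, at 4.05, had 16.3, 28.8 and 15.4 counts in chromatin and at most 1 read in each nucleoplasm library, which makes it at least 7.81-fold higher in chromatin against the same floor. RBL1, the pocket protein p107, also held 4, with log2 fold changes from 2.88 to 4.64, of which the lowest was at a sequence with many genomic copies. SLC35G2 and ZNF654 held 4 loci as well. Over the class, the 52 pairs of loci in 1 intron differed by a median of 0.38 in log2 fold change, the 40 pairs in different introns of 1 host by 0.91, and all pairs of loci by 1.05. Neighbours in an intron lay a median of 1052 bases apart, and whether they are pieces of 1 RNA was not tested.

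The hosts were grouped by the first letters of their symbols, so that genes of the same role under another symbol stand in no group, and the counts hold for the symbols alone. Zinc finger genes, which code mostly for DNA-binding repressors, were the largest group, with 27 loci in 18 hosts. Of these 25 were called in chromatin, with a median of 3.12, and the hosts themselves had a median of 0.44, with 16 loci in hosts higher in chromatin and 4 in hosts higher in nucleoplasm. The median difference from the host was 2.68. In ZNF2, 3 loci of intron 1 had log2 fold changes of 2.81, 2.88 and 2.66. In ZNF331 a locus had 51.2, 49.2 and 46.1 counts in chromatin and 21.1, 16.4 and 18.6 in nucleoplasm (log2 fold change 1.35) beside 1.36 for its host.

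Genes with symbols in COX, MRPL, MRPS or SLC25, which are mostly mitochondrial, held 12 loci in 8 hosts, with 11 called and a median of 4.00. In SLC25A17, a peroxisomal member of the mitochondrial carrier family, the locus had 1164, 1511 and 1199 counts in chromatin and 49.1, 57.7 and 52.4 in nucleoplasm (log2 fold change 4.57), and its host had -0.77. Other solute carriers also held 12 loci in 8 hosts, with 11 called and a median of 3.94. The exception, in SLC66A2, had 111, 87.7 and 83.4 counts against 84.2, 73.2 and 76.9 and a GC content of 62.6%, and it did not pass the test (log2 fold change 0.25, limma adjusted p = 0.11). Genes of the ubiquitin system with symbols in FBX, KLH, RNF or USP held 10 loci in 9 hosts, with 7 called and a median of 3.09, and the FBXO27 locus above was higher in nucleoplasm. DCAF10, a substrate receptor of ubiquitin ligases, is not among them by its symbol. Smaller groups were RNA processing (4 of 5 called), MAP3K10, PIK3CA and PRKAR1A of kinase signalling (5 of 5), and symbols in ARID, CHD or SMARC (2 of 3). Vesicle and nuclear transport (3 of 3) and DNA repair (2 of 2) were the others.

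The introns of the 317 hosts held 9700910 bases at least 1000 bases from an exon, and the loci covered 8.77% of them. The first intron held 23.1% of the loci (89) and 24.8% of those bases. The first 50% of the host span held 60.0% of the loci (231) and 57.0% of the bases. In steps of 10% of the span, the largest excess was between 10% and 20% (17.4% of loci and 12.7% of bases), and the largest shortfall between 70% and 80% (6.49% and 9.54%). The stretch from 80% to 90% held 10.9% of loci and 8.55% of bases, and that from 90% on 2.08% and 4.38%. The median locus spanned 1057 bases (range 205 to 25389) in an intron of 11896 bases, of which it covered 10.4%, and lay 2084 bases from the nearest exon. The upstream exon was the nearer one for 225 loci.

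Fold change differed with position, though its median differed little between the first and the later introns. Loci of the first intron had a median log2 fold change of 3.81 with 87 of 89 called, and the 57 loci in the last of several introns had 3.32 with 45 called. By distance from the nearest exon, the median was 3.51 between 1000 and 2000 bases (148 of 179 called), 3.83 between 2000 and 5000 bases (134 of 143) and 4.16 beyond (60 of 63). Loci of under 300 bases had a median of 3.09 and those of 3000 bases or more had 4.36. At most 3 reads in every nucleoplasm library were found in 25 of the 54 shorter loci and 0 of the 86 longer ones. The pseudocount limits the fold changes of such loci, and how far this accounts for the gap was not tested. Across the 385 loci, log2 fold change had a Pearson's r of 0.24 with the log10 of exon distance, 0.37 with the log10 of span and -0.15 with position in the host. For span, Spearman's rho was 0.38, and in the 217 loci with a mean of at least 50 r was 0.48 and rho 0.37. For position, r was -0.11 without the 18 close copies, and in those 217 loci r was -0.16 and rho -0.07.

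GC content was not used to choose the loci and moved with fold change. The loci were split into 4 classes of nearly equal number by GC content. From the lowest class (25.4% to 37.4%) to the highest (45.6% to 64.2%), median log2 fold changes were 4.00, 4.02, 3.88 and 2.81. In the highest class 71 of 96 loci were called in chromatin, against 89 of 97 in the lowest. The median nucleoplasm count rose over the classes from 5.45 through 9.03 and 10.9 to 13.6, while the chromatin medians were 81.0, 169, 149 and 71.8. Pearson's r between GC content and log2 fold change was -0.35 over 385 loci, -0.39 without the 18 close copies and -0.44 in the 217 loci with a mean of at least 50. In loci within 1 kb of an exon r was -0.21, and in remote loci of longer hosts -0.22.

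**Figure D4:**
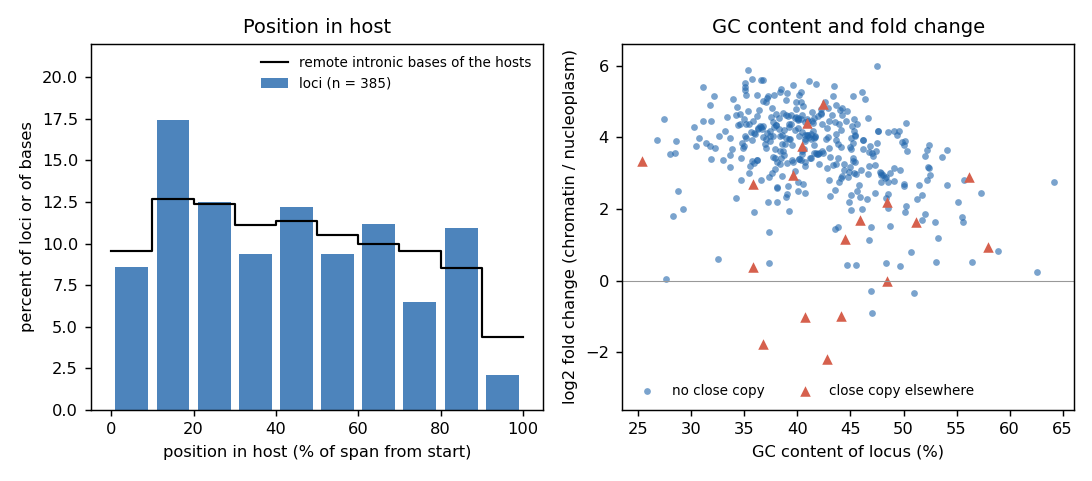
Left, percent of the 385 loci (bars) and of the remote intronic bases of their hosts (line) in each 10% of the host span; right, log2 fold change against GC content, with triangles for loci with a close copy elsewhere. The bars are farthest above the line between 10% and 20% and farthest below it between 70% and 80%, and fold changes are lower at high GC content.

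The letters AATAAA, the common polyadenylation signal, were searched on the strand of the locus only. They stood in the last 100 bases of 29 loci (7.53%) and in the first 100 of 27 (7.01%). The shares were 6.95% and 5.82% in loci within 1 kb of an exon, and 10.9% and 7.67% in remote loci of longer hosts. The motif was thus about as frequent at the start of these loci as at the end.

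The class was set beside other intronic loci. In each library the median of log2((count + 1) per kb) was taken over the 385 loci, over 789 tested loci within 1 kb of an exon in coding genes, and over 701 tested remote loci in coding genes of 100 kb or more. Against loci near exons the difference was -0.08 ± 0.05 (SD, n = 3) in chromatin and -0.67 ± 0.01 in nucleoplasm. Against loci of longer hosts it was 0.01 ± 0.10 in chromatin and 1.07 ± 0.03 in nucleoplasm. The differences thus changed between fractions by 0.59 and -1.06, with no overlap between the libraries of both fractions. An exact two-sided permutation test gave p = 0.1 for each, the smallest p that 3 against 3 libraries allow, so it cannot pass the threshold and nothing is drawn from it. These medians hold the loci that passed the minimum through chromatin alone. Among loci with at least 10 counts in all 6 libraries, the median log2 fold change was 2.77 in 494 loci near exons, 3.36 in 158 of this class and 4.91 in 376 of longer hosts. On the linear scale the medians over loci of the mean level in chromatin were 111, 105 and 104 counts per kb in loci near exons, this class and loci of longer hosts. In nucleoplasm they were 12.6, 7.06 and 3.50 counts per kb. The share called in chromatin was 75.7%, 88.8% and 92.9% in the same order. The classes also differed in locus length, with median spans of 1187, 1057 and 3340 bases, and in median chromatin count (152, 125 and 339). Fold change rose with the log10 of span in each class (Pearson's r 0.49, 0.37 and 0.53). How far locus length accounts for the class differences was not tested. The assembly lists only loci with enough coverage, in all 3 classes.

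**Figure D5:**
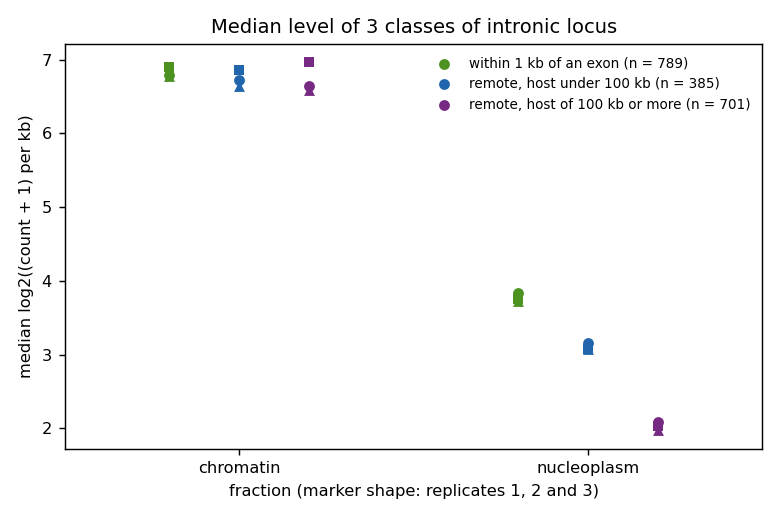
Median log2((count + 1) per kb) of 3 classes of intronic locus in each short-read library (marker shape shows the replicate). In chromatin the classes lie together, and in nucleoplasm they fall in the order loci near exons, remote loci in hosts under 100 kb, remote loci in longer hosts.

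Just inside the exon distance, at 1006 bases, loci in FBXL12 and FBXO34 had log2 fold changes of 3.01 and 3.90. Just outside it, at 995 and 994 bases, loci in ZCCHC10 and FOXP4 had 2.97 and 3.01. Just inside the host span, RBL1 (99649 bases) held loci at 2.88 and 3.56, and just outside, LRP12 (100028 bases) held loci at 5.34 and 5.06.

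Long reads of the chromatin fraction gave a second readout. A locus counted as covered when a long-read transcript on its strand overlapped at least 50% of it. The transcript had to touch no annotated exon on that strand and be above 0 TPM in both libraries. This held for 45 of 385 loci (11.7%, 95% Wilson interval 8.85% to 15.3%). The interval treats loci as independent, though some share a host or a covering transcript, and it measures no spread between libraries. The share was 6.19% of loci near exons and 13.5% of remote loci in longer hosts. Covering transcripts of the 45 loci spanned a median of 3070 bases, so near an exon such a transcript would more often touch it and be left out. The share near exons is therefore not comparable. On either strand coverage held for 114 of the 385 loci (29.6%), and the long-read strand is less certain than that of the short reads. A transcript on the other strand was checked against exons of that strand only. Host RNA assembled on the wrong strand may therefore be in the either-strand share, and its part was not tested. The covering transcript was longer than the locus in 39 of 45. The share was 11.3% for loci with a mean chromatin count under 50, 9.59% between 50 and 100, 13.6% between 100 and 500, and 9.62% above that. The median chromatin count was 144 in covered loci and 122 in the others. TPM values carry no read depth, so no interval is given for them.

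High long-read values were found in BTBD3, which codes for a BTB domain protein, with 11.6 and 13.0 TPM over a transcript that extended beyond the locus. The short-read counts of that locus were 284, 343 and 294 in chromatin and 7.90, 10.3 and 11.8 in nucleoplasm (log2 fold change 4.82 ± 0.17), and an antisense gene, BTBD3-AS1, overlaps it. AVL9 had 7.03 and 6.03 TPM. Over the 45 loci the median of the mean TPM was 2.51, and covered loci had a median short-read log2 fold change of 3.82, against 3.72 in the others. A gene on the other strand overlapped 52 of the 385 loci, with a median log2 fold change of 3.40, against 3.76 for the 333 others.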

How the data were processed

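RNA of HAP1 nuclei was measured in 6 short-read and 2 long-read libraries, grouped by sample title. For short reads, the authors aligned with HISAT2 (2.1.0 in the submitters' processing notes) to hg38, assembled and counted with StringTie guided by GENCODE, and deposited a normalized signal: gene counts after division by size factors from DESeq2. Within a library every value above 0 was a multiple of the lowest one (tolerance 0.001), which gave recovered reads. Long reads were aligned by the authors with minimap2, assembled with StringTie, and the deposited values are TPM per transcript; whether before or after strands were assigned is not given in the sources used here. Intervals and floors cover counting error only.

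Genes that reached 10 normalized counts in 3 libraries or more and spanned over 200 bases were tested with limma 3.58.1 (R 4.3.3, mean-variance trend, log2(normalized count + 1), Benjamini-Hochberg adjustment), without ERCC standards; fold changes on this scale understate the change of low genes. The ratio to the host used limma without trend. Alternatives included DESeq2 1.42.0 and edgeR 4.0.16 on the recovered reads, and all fits were tested on simulated data. Introns came from GENCODE release 44 on hg38, a later release than the authors used. Host genes were matched by the overlap of spans (Jaccard index 0.5 or more). Copies were searched with BLAST 2.17.0; a match to over 5 genes or 50 places counted as many copies. Long-read rows give spans only, so transcripts touching an exon on the strand, which would include the host's own, were left out, a change from the plan made after seeing the data.

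Named loci were the 6 most abundant, the 5 highest and 5 lowest fold changes at a mean of at least 50, up to 5 not higher in chromatin, the 3 highest and 3 lowest against host, the 3 highest TPM, all loci of the 3 hosts with most (ties by alphabet) and 2 on each side of each limit. 1 locus that this rule names is not reported here. Other loci named, in the passages on close copies and host groups, and the GC classes and locus pairs were chosen after their values were seen. The loci and lists were chosen with earlier results of these data known. The labels do not say that replicates of 1 group are more than separate samples; the methods name 3 cultures.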

Additional observations from a re-analysis of the deposited data

How the results depend on the processing

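The median log2 fold change of the 385 loci (3.72) was 3.94 with a pseudocount of 0.5 and 2.95 with 5, 4.13 with the same total, 2.61 with the same ERCC total, 4.02 by edgeR and 4.12 by DESeq2. It was 4.01 in loci with a mean of at least 50, 3.94 at an exon distance of at least 2000 and 4.16 of at least 5000. The loci called in chromatin (342 of 385) numbered 192 of 217 at a mean of at least 50, 194 of 206 and 60 of 63 at those distances, and 159 of 178 in hosts under 50000 bases, where fewer loci were counted; edgeR called 346 and DESeq2 348. The median difference from the host (4.07) was 4.21 and 3.36 with pseudocounts of 0.5 and 5, and 4.27 at a mean of at least 50, where 202 of 210 loci were above their host. The difference from loci near exons (0.59) was 0.64 and 0.40 with those pseudocounts, 0.77 without division by span and 0.52 at a mean of at least 50. The difference from loci of longer hosts (-1.06) was -1.24 with a pseudocount of 5 and -0.77 without division by span. Long-read coverage (11.7%) was 19.2% with any base of overlap, 8.31% at 90% of the locus, 29.6% on either strand, and 87.8% when transcripts of the host that span the intron were counted, an alternative chosen after seeing the data, as was leaving out the close copies. Without each library in turn the values ranged over 3.66 to 3.80 for the median, 340 to 345 for the calls, 3.92 to 4.10 for the host difference, 0.57 to 0.62 and -1.09 to -1.0004 for the class differences. Deviations of same-numbered libraries correlated at 0.087, 0.053 and 0.063, and every library correlated best with its own number. The methods take both fractions from 3 cultures, but the labels do not say that equal numbers mark the same culture, and the main fits were unpaired. With the replicate number as a block the median was 3.72 and 342 loci were called. The host difference was then 4.07, and 352 loci were above their host. No alternative turned the direction of a class value. Single loci near 0 could turn, and the values above do not list every such case. The AAMDC locus ran from -1.32 with the same ERCC total to 0.61 by DESeq2. Loci with few nucleoplasm reads have fold changes set largely by the pseudocount.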
